A study of Mus musculus with 2 samples.

Results

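Immune cells and platelets were read out in mouse heart through 53 genes that mark resident macrophages, dendritic cells, lymphocytes, mast cells, neutrophils and platelets. The genes were taken by their symbols from a written list, and all 53 were found among the 55536 annotated genes of the gene table. By role they are 22 macrophage and myeloid genes, 4 dendritic cell genes, 12 lymphocyte genes, 3 mast cell genes, 2 neutrophil genes, 9 platelet genes and Ptprc, which encodes CD45, the surface phosphatase of all leukocytes. The RNA came from whole hearts of 2 male F1 hybrid mice (B6CASTF1/J, 2 months of age, The Jackson Laboratory), 300 ng per library, after reduction of ribosomal RNA. Both libraries form 1 group without a treatment or a control, and are called replicate 1 and replicate 2. The labels number the males and tissue samples separately but carry the same donor entry, so that the libraries come from 2 mice is a reading of the labels. The libraries held 39177981 (replicate 1) and 44544839 (replicate 2) expected counts.

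Resident macrophages settle in the heart before birth and are renewed there locally and from blood monocytes. They clear dying cells and debris through scavenger and complement pathways, and depend on signalling through the CSF1 receptor. Platelets carry RNA from the megakaryocytes that shed them. In a whole organ this RNA can come with blood that remains in the vessels, as can RNA of circulating lymphocytes, neutrophils and red cells. In bulk tissue RNA, fewer cells of a type and less RNA per cell cannot be told apart.

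Macrophage genes were the largest immune signal and stood at like levels in both hearts, whereas most platelet genes and the B cell genes were higher in replicate 1. Levels are given in TPM, the share of a gene in all transcripts after correction for gene length, scaled to the same total in each library. The 53 genes together held 312.73 TPM in replicate 1 and 284.77 TPM in replicate 2, from 15343 and 16116 expected counts. A level of at least 1 TPM in each of the 2 mice was taken as detection. This held for 27 of the 53 genes, against 21.5% of all annotated genes and 49.8% of nuclear protein-coding genes. By role it held for 19 of 22 macrophage genes, 1 of 4 dendritic cell genes, 2 of 12 lymphocyte genes, 0 of 3 mast cell genes, 0 of 2 neutrophil genes, 4 of 9 platelet genes and Ptprc. The median of the macrophage genes was 4.28 ± 0.428 TPM (SD, n = 2), detected or not, against a median of 1.08 TPM over all nuclear protein-coding genes in both mice. Checked against the label of the gene set, macrophage genes were nearly all present. The 4 of 9 platelet genes detected in both mice are no higher a share than that of protein-coding genes as a whole. In replicate 1 alone, however, every platelet gene but Treml1 (0.45 TPM) reached 1 TPM. The platelet median was 3.53 TPM in replicate 1 and 0.90 TPM in replicate 2. T cell genes and Ly6g were at or near 0, and the mast cell proteases, Kit and Csf3r were low.

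**Figure D1:**
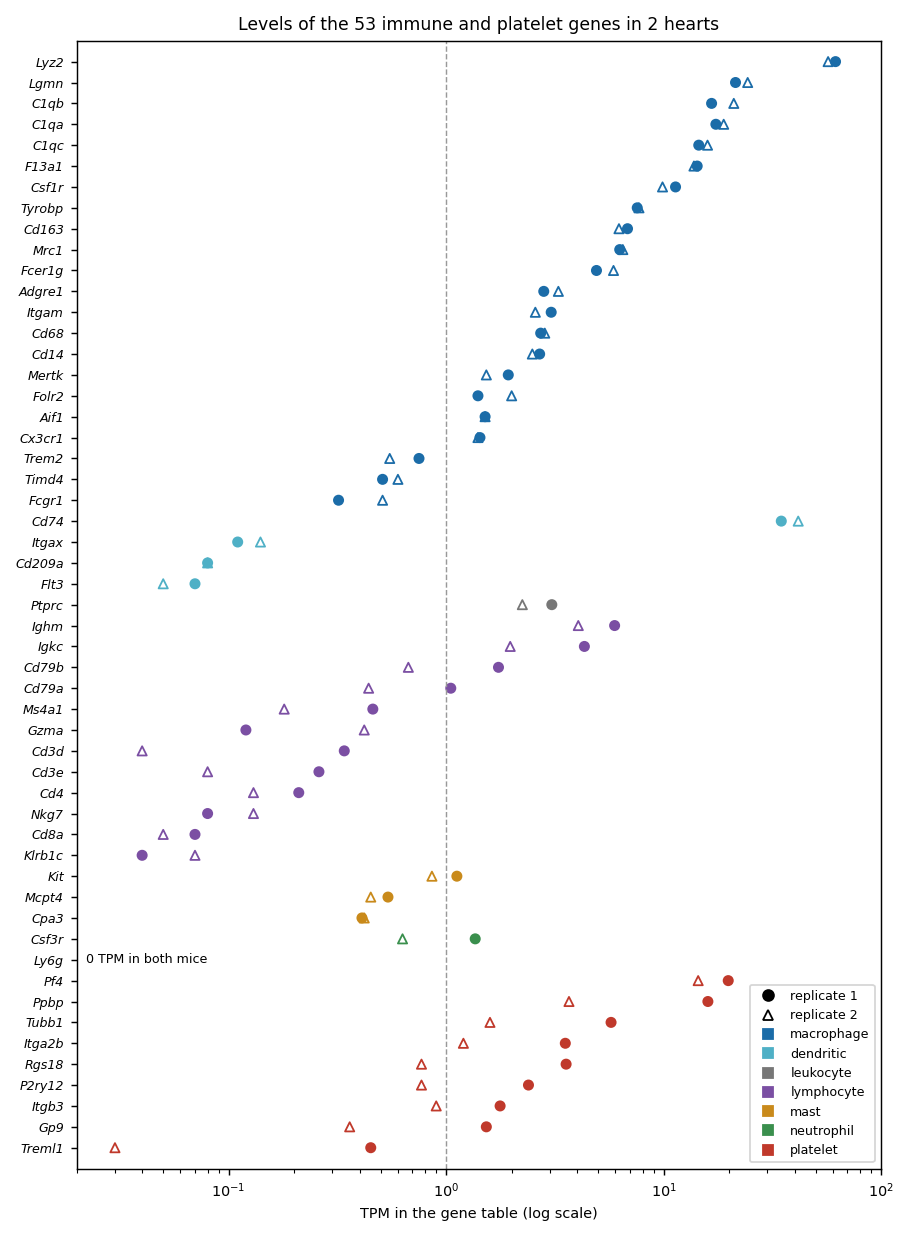
TPM (log axis) of each of the 53 genes in replicate 1 (filled circles) and replicate 2 (open triangles), coloured and grouped by role; the dashed line marks 1 TPM and Ly6g was at 0 in both mice. Macrophage genes lie between 0.32 and 61.69 TPM with the 2 mice close together, and all 9 platelet genes lie higher in replicate 1.

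The secreted and lysosomal products of macrophages led the set. Lyz2 (ENSMUSG00000069516.8; mm10 chromosome 10, 117277331 to 117282321) encodes lysozyme M, the bacteriolytic enzyme of myeloid cells. It stood at 61.69 TPM in replicate 1 and 57.03 TPM in replicate 2, the highest level of the 53 genes in each mouse. Its near-identical paralog Lyz1 had 194 and 206 expected counts against 2327 and 2442 for Lyz2. The ratio of Lyz2 to Lyz1 in TPM was 11.4 ± 0.107 in the gene table and 16.9 with the second quantifier, so how reads were split between the 2 genes is uncertain. Lgmn, the lysosomal protease legumain, stood at 21.40 and 24.34 TPM. F13a1, the catalytic chain of coagulation factor XIII, which tissue macrophages and megakaryocytes both make, stood at 14.26 and 13.78 TPM.

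The 3 chains of complement C1q, the recognition molecule of the classical complement pathway, were present in near equal amounts. They are neighbours on mm10 chromosome 4, with C1qb (ENSMUSG00000036905.8) at 136880129 to 136886187, C1qc (ENSMUSG00000036896.5) at 136889804 to 136893065 and C1qa (ENSMUSG00000036887.5) at 136895917 to 136898803. C1qa stood at 17.38 TPM in replicate 1 and 18.88 TPM in replicate 2. C1qb stood at 16.61 and 21.01 TPM, and C1qc at 14.50 and 15.91 TPM. The 3 chains are built into the C1q molecule in equal numbers, and their levels lay at most 1.32-fold apart in each mouse. The ratio of C1qa to C1qc was 1.19 ± 0.00845 and that of C1qb to C1qc 1.23 ± 0.124 (SD, n = 2). With the second quantifier these ratios were 1.02 and 1.13. The levels of C1qb, C1qa and Pf4 (17.1 ± 3.82 TPM) did not differ beyond their SDs.

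The stretch upstream of C1qb is shown as an example from the C1q genes. It is the 250 bases before the RefSeq start of the gene, read 5′ to 3′ on its strand from the RefSeq table of GRCm38.p6, with capitals marking GAGGAA or its reverse TTCCTC. This motif is the core bound by ETS factors of the PU.1 type, the lineage factor of macrophages and B cells.
C1qb (chr4:136886201-136886450, minus strand): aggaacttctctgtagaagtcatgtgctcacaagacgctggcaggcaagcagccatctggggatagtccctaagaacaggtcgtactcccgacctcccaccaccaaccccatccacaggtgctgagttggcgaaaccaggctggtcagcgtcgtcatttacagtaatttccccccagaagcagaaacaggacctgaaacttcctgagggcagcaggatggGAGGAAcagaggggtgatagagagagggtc
Counted from the RefSeq start, the match in C1qb lies at -30. Of the 53 genes, 40 had entries in the table, 46 in all since some have several starts. For Kit and Ly6g the stretches of nearby starts overlap, and the same matches count in both. In 20 of the 40 genes a stretch reached into the gene as GENCODE M21 annotates it, whose start can differ from that of RefSeq. GAGGAA on either strand occurred in 24 of the 46 stretches (52.2%), among them 9 of 20 of macrophage genes, 5 of 7 of lymphocyte genes and 4 of 7 of platelet genes, against 23.3% of all 32851 promoters of the same length. It contains GGAA, which other ETS factors bind too. The GATA site AGATAA, or its reverse TTATCT, shares no such core with it and occurred in 3 of the 46 (6.52%; Ptprc, Cpa3 and Itgax) against 9.99% of all promoters. Letter matches describe these windows and do not show binding.

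Receptors of the macrophage surface followed at lower levels. Csf1r, the receptor for CSF1 and IL-34 on which macrophages depend, stood at 11.34 TPM in replicate 1 and 9.88 TPM in replicate 2. Its reads could overlap Hmgxb3 on the opposite strand, with 800 and 1004 expected counts, since the use of strand in counting is not stated. The scavenger receptor Cd163, which takes up hemoglobin with haptoglobin, stood at 6.82 and 6.23 TPM, and the mannose receptor Mrc1 at 6.28 and 6.49 TPM. The ratio of Mrc1 to Cd163 was 0.921 in replicate 1 and 1.04 in replicate 2, so the order of these 2 genes differed between the mice. Adgre1, the F4/80 antigen, stood at 2.81 and 3.28 TPM, Itgam, the CD11b integrin chain, at 3.04 and 2.57 TPM, and Cd14, a co-receptor for bacterial lipopolysaccharide, at 2.69 and 2.49 TPM. These are used to define macrophages by antibody and lay below the complement chains in each mouse.

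Receptors for dying cells, and Folr2 among the markers of long-lived resident macrophages, were low but counted in both hearts, while Lyve1 stood higher. Mertk, a receptor through which macrophages engulf dying cells, stood at 1.93 and 1.53 TPM. Timd4, which binds phosphatidylserine on dying cells, and Folr2, a folate receptor, mark the resident subset together with Lyve1. Folr2 stood at 1.40 and 2.00 TPM and Timd4 at 0.51 and 0.60 TPM, the latter from 33 and 44 expected counts. Lyve1, from a list of further macrophage genes, stood at 8.29 and 10.72 TPM, but lymphatic endothelium makes it as well. An annotated antisense gene of Folr2, Gm10602, had 86 and 84 counts against 42 and 61 for Folr2, so the level of Folr2 is uncertain. Cx3cr1, the fractalkine receptor, stood at 1.43 and 1.40 TPM, and its annotated span also covers Wdr48, Gorasp1, Csrnp1 and Xirp1. Xirp1, on the same strand, had 8469 and 9115 counts against 154 and 180 for Cx3cr1, so the level of Cx3cr1 is uncertain. Trem2, a lipid-sensing receptor, stood at 0.75 and 0.55 TPM and the high-affinity IgG receptor Fcgr1 at 0.32 and 0.51 TPM, each from 22 to 30 counts.

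Signalling adapters stood above several of the receptors that use them. Tyrobp (DAP12), the partner of Trem2 and other receptors, stood at 7.56 TPM in replicate 1 and 7.70 TPM in replicate 2. Fcer1g, the shared gamma chain of Fc receptors including Fcgr1, stood at 4.91 and 5.88 TPM. Both adapters serve many receptors in several leukocyte types, so their levels are not those of macrophages alone. The lysosomal protein Cd68 stood at 2.72 and 2.84 TPM. Aif1 (IBA1), a calcium-binding protein of macrophages, stood at 1.51 TPM in both mice, from 25 and 29 counts. The common leukocyte gene Ptprc stood at 3.06 and 2.24 TPM.

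Of the dendritic cell genes, Cd74 was abundant and the others were near the limit of counting. Cd74, the invariant chain that escorts MHC class II molecules, stood at 34.74 TPM in replicate 1 and 41.56 TPM in replicate 2, next to Lyz2 in the order of levels. Macrophages, B cells and some endothelial cells make it too. Itgax, the CD11c integrin chain, stood at 0.11 and 0.14 TPM, and Cd209a at 0.08 TPM in both mice. Flt3, the receptor that drives dendritic cell development, stood at 0.07 and 0.05 TPM. The last 3 genes had between 2 and 16 counts per library, so their differences between mice were not detectable at this depth. The ratio of Cd74 to Csf1r was 3.06 in replicate 1 and 4.21 in replicate 2.

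Among lymphocyte genes the B cell receptor genes stood highest. Ighm, the constant region of IgM, stood at 5.95 TPM in replicate 1 and 4.05 TPM in replicate 2, and Igkc, the kappa light chain constant region, at 4.32 and 1.97 TPM. The signalling chains of the B cell receptor, Cd79b and Cd79a, stood at 1.74 and 0.67 TPM and at 1.05 and 0.44 TPM. Ms4a1, which encodes CD20, stood at 0.46 and 0.18 TPM. All 5 were higher in replicate 1. The receptor partners kept a like ratio, Cd79b to Cd79a being 1.66 in replicate 1 and 1.52 in replicate 2, while Ighm to Igkc was 1.38 and 2.06.

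The 7 T and NK cell members had at most 17 counts a library. Cd3e and Cd3d, invariant chains of the T cell receptor complex, stood at 0.26 and 0.08 TPM and at 0.34 and 0.04 TPM. The coreceptors Cd4 and Cd8a stood at 0.21 and 0.13 TPM and at 0.07 and 0.05 TPM, and Cd4 is also made by some myeloid cells. The NK and cytotoxic cell genes were Gzma at 0.12 and 0.42 TPM, Nkg7 at 0.08 and 0.13 TPM and Klrb1c at 0.04 and 0.07 TPM. Summed over the 4 T cell genes there were 36 and 25 counts, and over the 3 NK genes 7 and 20. The exact 95% counting intervals of the ratio of replicate 2 over replicate 1 in scaled counts, -1.56 to 0.02 and -0.02 to 2.77 in log2, both held 0. A further 14 T and NK cell genes, among them the T cell receptor constant genes Trac and Trbc1, summed to 148 and 114 counts, a log2 ratio of -0.61 (interval -0.98 to -0.25). The 12 lymphocyte genes had a median of 0.228 ± 0.103 TPM. The thymocyte genes Rag2, Dntt and Ptcra had 0 counts in both libraries, and Rag1 had 0 and 4. With Cd1d1 and Themis, which other cells also make, the thymocyte list summed to 46 and 65 counts.

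Mast cell and neutrophil genes were sparse. Kit, the stem cell factor receptor, listed here as a mast cell gene, stood at 1.12 TPM in replicate 1 and 0.86 TPM in replicate 2. It had 135 and 155 counts, and the part of mast cells in them was not tested. The mast cell proteases Mcpt4 and Cpa3 stood at 0.54 and 0.45 TPM and at 0.41 and 0.42 TPM, with 16 to 20 counts a library. Of 9 further mast cell genes none reached 1 TPM in both mice, and the proteases Cma1 and Tpsb2 stood at 0.33 and 0.49 TPM and at 0.43 and 0.53 TPM. The 9 genes summed to 61 and 85 counts, a log2 ratio of 0.25 (interval -0.25 to 0.74). Csf3r, the G-CSF receptor of neutrophils, stood at 1.36 and 0.63 TPM. Ly6g, the surface marker by which mouse neutrophils are sorted, had 0 counts in both libraries, where 3 counts would equal 0.179 TPM in replicate 1 and 0.158 TPM in replicate 2. Of 11 further neutrophil genes 2 reached 1 TPM in both mice, S100a8 at 5.84 and 2.94 TPM and S100a9 at 5.94 and 3.51 TPM, which monocytes also make. Ngp, Elane and Mpo, granule genes made mostly by precursors in the marrow, had 0 counts in both libraries.

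The platelet genes ranged from chemokines of the alpha granule to adhesion receptors and the platelet cytoskeleton. Pf4 (ENSMUSG00000029373.7; mm10 chromosome 5, 90772435 to 90773383) and Ppbp (ENSMUSG00000029372.7; chromosome 5, 90768518 to 90770063) encode granule chemokines, and some resident macrophages also make Pf4. Pf4 stood at 19.81 TPM in replicate 1 and 14.41 TPM in replicate 2, and Ppbp at 15.97 and 3.67 TPM. The ratio of Ppbp to Pf4 was thus 0.806 in replicate 1 and 0.255 in replicate 2, and 0.705 and 0.260 with the second quantifier. Tubb1, the tubulin of the platelet marginal band, stood at 5.73 and 1.59 TPM. Rgs18, a brake on G protein signalling in platelets, stood at 3.56 and 0.77 TPM, and the ADP receptor P2ry12 at 2.39 and 0.77 TPM.

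The adhesion receptor genes had the same direction. Itga2b and Itgb3, the chains of the platelet fibrinogen receptor, stood at 3.53 and 1.20 TPM and at 1.77 and 0.90 TPM. Itgb3 also pairs with another alpha chain in vascular and other cells, and the ratio of Itga2b to Itgb3 was 1.99 in replicate 1 and 1.33 in replicate 2. Gp9, part of the receptor for von Willebrand factor, stood at 1.53 and 0.36 TPM. Treml1, a receptor of the platelet granule membrane, stood at 0.45 and 0.03 TPM, from 16 counts and 1 count. The median of the 9 genes was 3.53 TPM in replicate 1 and 0.90 TPM in replicate 2.

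The stretches upstream of the neighbouring genes Ppbp and Pf4 are shown as examples from the platelet genes. They are reference sequence, and any bearing on the differences between the mice was not tested. Strand, length, source and capitals are as for C1qb, and the RefSeq and GENCODE starts are the same for both genes.
Ppbp (chr5:90768268-90768517, plus strand): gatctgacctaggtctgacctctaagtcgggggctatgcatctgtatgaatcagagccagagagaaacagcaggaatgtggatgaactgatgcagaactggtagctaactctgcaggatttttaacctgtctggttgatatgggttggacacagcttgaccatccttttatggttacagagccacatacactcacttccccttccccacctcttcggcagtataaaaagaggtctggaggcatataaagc
Pf4 (chr5:90772185-90772434, plus strand): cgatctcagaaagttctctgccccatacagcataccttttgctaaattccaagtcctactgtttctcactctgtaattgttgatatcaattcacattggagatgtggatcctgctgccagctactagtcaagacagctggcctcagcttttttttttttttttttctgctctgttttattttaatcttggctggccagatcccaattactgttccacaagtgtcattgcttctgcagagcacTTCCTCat
Pf4 has TTCCTC at -8 from its start, and Ppbp has neither motif in this window. Among the other platelet genes, Tubb1 has GAGGAA or its reverse at -107 and -27, Itga2b at -126 and -44 and Gp9 at -15. These positions are counted from the RefSeq start. AGATAA was in 0 of the 7 platelet stretches, which says nothing of GATA factors outside these windows.

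Differences between the hearts were compared in expected counts scaled by the TMM method, as log2 of replicate 2 over replicate 1. A mean of at least 50 expected counts was reached by 30 of the genes. Of these, 6 were at least 2-fold higher in replicate 1, against 0.369% of all 12454 genes with such counts, and 0 were 2-fold higher in replicate 2, against 0.201%. All 6 were platelet genes. With a mean count of at least 10 the numbers were 11 of 43, against 1.84% of 15746 genes, and 0, against 0.756%. The 5 genes added were Gp9, Cd79a, Cd79b, Ms4a1 and Igkc. The other 10 of the 53 genes had fewer counts and enter neither number. With 1 library a mouse no p can be given, and the exact 95% intervals beside each ratio cover counting error only.

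Macrophage genes did not reach 2-fold in either direction, which was so for most genes. Of all genes with a mean count of at least 10, 1.84% were 2-fold higher in replicate 1 and 0.756% in replicate 2. Together the macrophage genes had 10903 counts (replicate 1) and 12612 counts (replicate 2), a log2 ratio of -0.02 (interval -0.06 to 0.01). All 22 had a mean count of at least 10, and under TMM scaling 11 were higher in replicate 1 and 11 in replicate 2. Over all genes with such counts the split was 7926 and 7820. Among the 18 with a mean count of at least 50, the log2 ratio ran from -0.36 for Mertk to 0.30 for Folr2, with a median of 0.00, against 0.01 over all genes. The C1q chains summed to 1511 and 1973 counts, a log2 ratio of 0.15 (interval 0.05 to 0.25), within which C1qb had 0.29 (interval 0.12 to 0.46). Lyz2 and Cd163 lay slightly the other way, at -0.16 (interval -0.25 to -0.08) and -0.18 (interval -0.32 to -0.04), which became 0.00862 and -0.00570 with scaling on the spike-ins. A further 17 macrophage genes, among them Lyve1, Stab1, Laptm5 and Spi1, summed to a log2 ratio of -0.01 (interval -0.04 to 0.02). Of these, 0 of 17 were at 2-fold, again near the share of all genes.

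**Figure D2:**
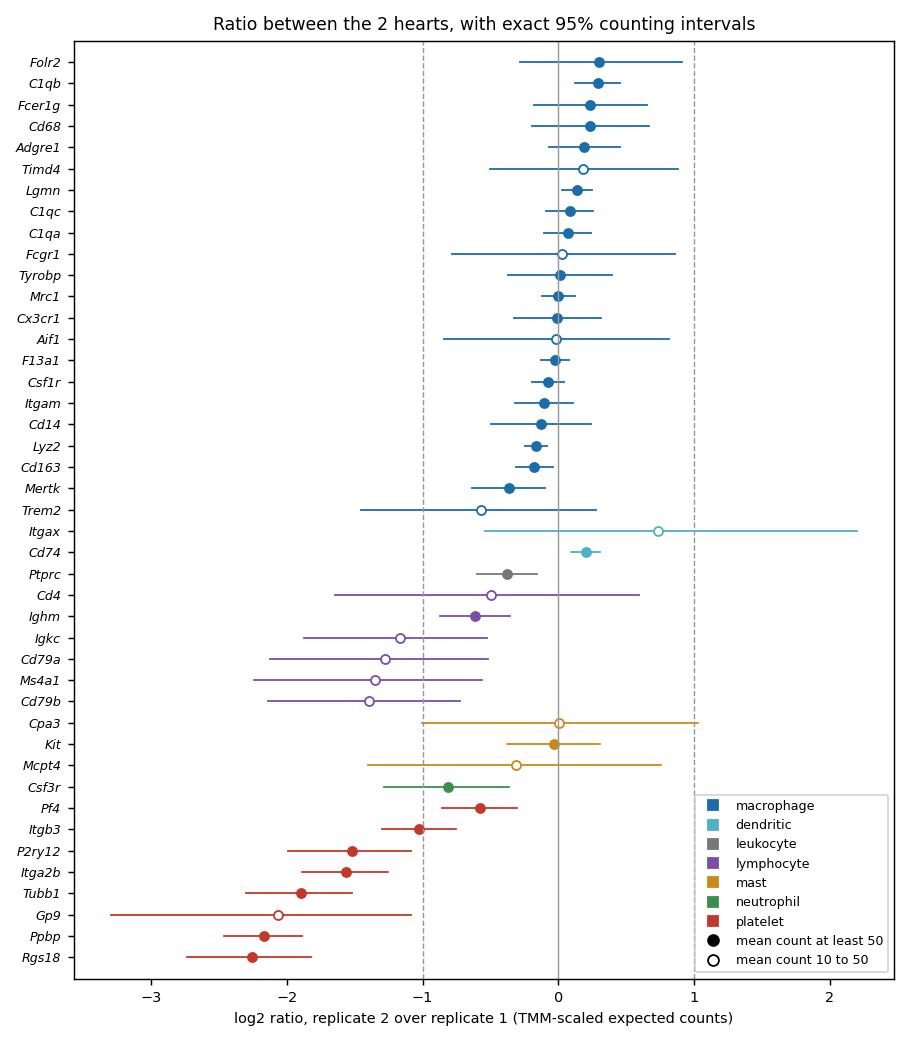
Log2 ratio of TMM-scaled expected counts, replicate 2 over replicate 1, for the 43 genes with a mean count of at least 10 (filled points, at least 50; open points, fewer); bars are exact 95% counting intervals and dashed lines mark 2-fold. Macrophage genes lie around 0, B cell genes between -1.40 and -0.61 and platelet genes between -2.26 and -0.58.

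Platelet genes were lower in replicate 2 for all 8 members with at least 10 counts. Rgs18, with 213 counts in replicate 1 and 52 in replicate 2, was 4.78-fold higher in replicate 1 (log2 ratio -2.26, interval -2.73 to -1.82). Ppbp, with 487 and 127 counts, was 4.49-fold higher (interval -2.47 to -1.89 in log2). Tubb1 was 3.72-fold, Itga2b 2.95-fold and P2ry12 2.87-fold higher. P2ry12 lies within Med12l on the opposite strand, which had 431 and 580 counts, the other direction. Itgb3, with 312 and 180 counts, was 2.03-fold higher, close to the threshold, and its log2 ratio of -1.02 became -0.85 with scaling on the spike-ins and -0.98 with total counts, under 2-fold. Pf4, with 252 and 198 counts, was 1.49-fold higher (log2 ratio -0.58, interval -0.86 to -0.31). Its interval did not overlap those of Ppbp, Rgs18, Tubb1, Itga2b, P2ry12 and Gp9, but overlapped that of Itgb3.

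The 9 platelet genes summed to 1989 and 817 counts, a log2 ratio of -1.52 (interval -1.64 to -1.40), and the 8 genes without Pf4 to 1737 and 619, a log2 ratio of -1.72 (interval -1.86 to -1.59). Of 10 further platelet genes with at least 10 counts, such as Nrgn, Clec1b, Gp5, Gp6 and Gp1ba, 8 were at least 2-fold higher in replicate 1. The others were Plek, at a log2 ratio of -0.94, which leukocytes also make, and Selp, at 0.12, which endothelium also makes. Red cell genes moved with them. A list of 8 red cell genes, led by the hemoglobin genes and Alas2, summed to a log2 ratio of -1.72 (interval -1.73 to -1.71), and all 6 with a mean count of at least 10 were 2-fold higher in replicate 1. Their summed level was 20348 TPM in replicate 1 and 6413 TPM in replicate 2. The part of residual blood in the platelet difference was not tested.

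B cell genes differed in the same direction by less. The 5 genes summed to 489 counts in replicate 1 and 316 in replicate 2, a log2 ratio of -0.86 (interval -1.07 to -0.66). Cd79b, with 59 and 26 counts, had -1.40 (interval -2.14 to -0.73), Igkc, with 58 and 30, had -1.17 (interval -1.87 to -0.52), and Ighm, with 286 and 220, had -0.61 (interval -0.87 to -0.35). Of the 10 further B and plasma cell genes, 9 had at least 10 counts, and under TMM scaling all 9 were lower in replicate 2, 3 of them by 2-fold. Ighd, Cd22, Pax5 and Iglc1 had -1.12, -0.99, -0.47 and -0.06, the last turning to 0.61 with the second quantifier, and Jchain, outside the 9, had 3 and 7 counts. Ebf1, with 677 and 672 counts, made up most of that list and is also made by pericytes and adipocytes, so the list sum of -0.40 (interval -0.53 to -0.26) is mostly that of Ebf1, at -0.24. Csf3r, with 102 and 68 counts, had -0.81 (interval -1.28 to -0.36), and 11 further neutrophil genes summed to -0.80 (interval -1.09 to -0.52). The monocyte list summed to -0.54 (interval -0.79 to -0.30), with Ccr2, the receptor that brings monocytes from blood into tissue, at -1.11 and S100a4 at 0.11. Ptprc had -0.38 (interval -0.60 to -0.16), between the macrophage and the B cell genes.

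**Figure D3:**
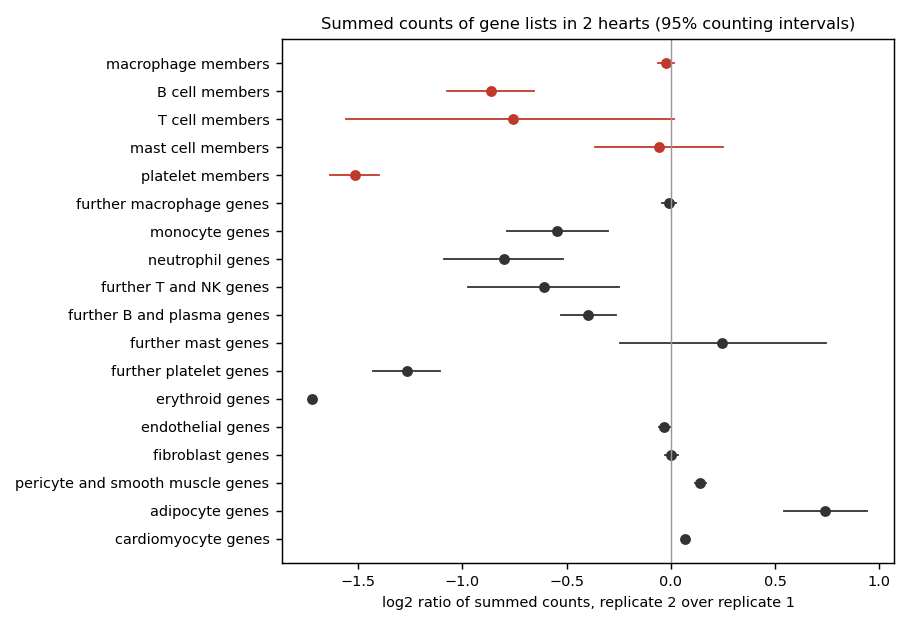
Log2 ratio of summed expected counts, replicate 2 over replicate 1, for 5 groups of the described genes (red) and 13 lists of other markers (black), with exact 95% counting intervals, some narrower than the points. Platelet and erythroid lists lie between -1.72 and -1.27, both macrophage lists lie near 0, and adipocyte genes lie at 0.74.

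Among markers of the tissue itself, cardiomyocyte genes summed to a log2 ratio of 0.07, endothelial genes to -0.03, fibroblast genes to 0.00 and pericyte and smooth muscle genes to 0.14. Within the last list the smooth muscle genes Tagln, Acta2 and Myh11 were higher in replicate 2, at 0.57 (interval 0.44 to 0.71), 0.51 (interval 0.42 to 0.60) and 0.37 (interval 0.28 to 0.46), and the pericyte gene Rgs5 had 0.05. Adipocyte genes summed to 0.74 from 319 and 626 counts. Mast cell members summed to 169 and 191 counts, a log2 ratio of -0.06 (interval -0.36 to 0.25). That sum is mostly Kit, with 135 and 155 counts and a log2 ratio of -0.03. Scaling on the spike-ins moved log2 ratios up by 0.17 against TMM, and by less for genes of few counts because of the prior count.

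Several of the genes have alternative transcripts with known protein differences. Of the 52 genes with counts, 11 have 1 annotated transcript. Of the other 41, 33 had the same dominant transcript in both mice, and 22 in both mice and with both quantifiers. In 9 genes at least 2 transcripts each held over 10% of the TPM of the gene in both mice. Cd74-201, with 8 exons, held 70.3 ± 0.983% of Cd74, and Cd74-202, with 9 exons, held 29.5 ± 1.27% (SD, n = 2). The longer form carries the added exon for a thyroglobulin-type domain that can inhibit cathepsins. With the second quantifier the shares were 67.2% and 32.7%.

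Ighm was mostly of the membrane form. Ighm-202, with 6 exons, which include those of the membrane anchor of the B cell receptor, held 74.8 ± 1.88% of Ighm, and Ighm-201, with 4 exons and the end of secreted IgM, held 25.2 ± 1.88%. The second quantifier gave 78.9% and 21.1%. Membrane IgM is the form on resting B cells, while plasma cells make mostly the secreted form. Jchain, which joins secreted IgM, had 3 and 7 counts. Cd163-201 and Cd163-202 held 64.0 ± 5.02% and 16.8 ± 4.54% of Cd163, and a transcript with a retained intron, Cd163-203, held 19.2 ± 0.481%, or 19.0% with the second quantifier.

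Other transcript shares rested on the quantifier. Pf4-202, which retains an intron, held 37.8 ± 7.52% of Pf4 in the first transcript table and 0% in the second, where Pf4-201 held 98.8%. In the first table Pf4-201 stood at 12.87 and 8.20 TPM and Pf4-202 at 6.43 and 6.21 TPM. The ratio of Pf4 with the second quantifier was -0.51. Lgmn-202 held 71.7 ± 1.95% of Lgmn in the first table and 6.57% in the second. F13a1-201 held 52.53% and 80.03% in the 2 mice in the first table, and 85.1% and 89.9% in the second. Of the other genes with 2 such transcripts, Itga2b-201 held 78.6 ± 2.14% of Itga2b, and Itgax had too few counts for shares. Aif1-205 and Aif1-203 held 46.6 ± 6.93% and 39.3 ± 12.9% of Aif1 in the first table. There Aif1-205, which retains an intron, rested on 7.12 and 9.92 expected counts. With the second quantifier Aif1-205 held 0% in replicate 1 and 47.1% in replicate 2. The leading transcript differed between the quantifiers in both mice for Cd79b (Cd79b-202 and Cd79b-201), Folr2 (Folr2-201 and Folr2-203) and Itgam (Itgam-203 and Itgam-201). The same held for Cx3cr1, Kit, Gzma and Nkg7. In replicate 2 alone the leading transcript differed between the quantifiers for P2ry12, Ptprc and Tyrobp. For Csf3r and Kit the dominant transcript differed between the mice in both tables. The TPM of Csf3r was 2.16-fold higher in replicate 1 while its scaled counts were 1.76-fold higher.

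**Figure D4:**
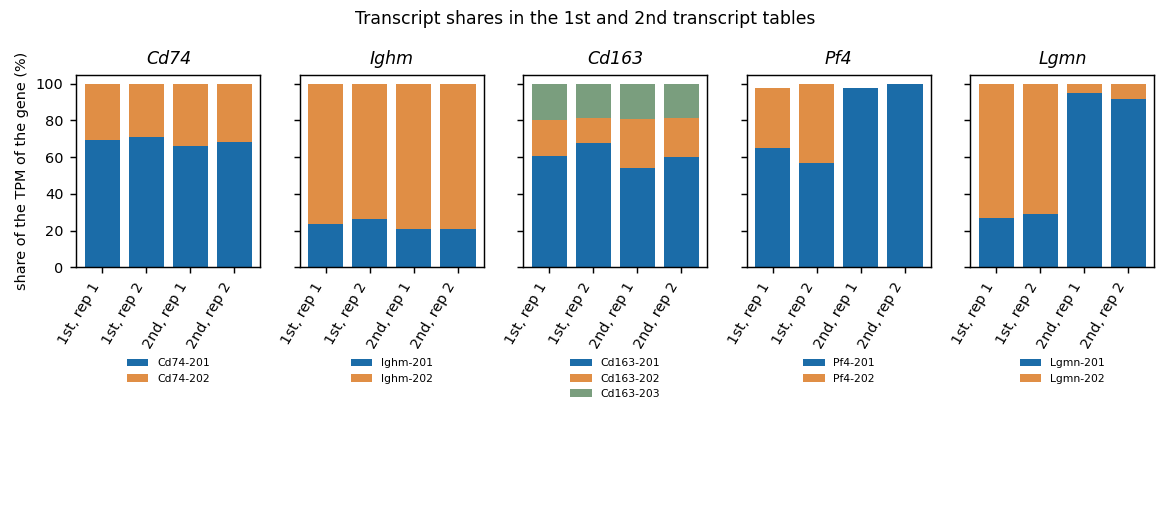
Share of the TPM of the gene (%, stacked bars from 0) held by each transcript of Cd74, Ighm, Cd163, Pf4 and Lgmn in replicates 1 and 2, from the first and the second transcript table; entries under 10% in every column are not drawn. Cd74, Ighm and Cd163 have the same leading transcript in all 4 columns, while Pf4-202 is at 0 and Lgmn-202 at 6.57% on average in the second table.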

How the data were processed

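Total RNA-seq of 2 heart libraries was analysed, 1 per mouse. The authors deposited a gene table of expected counts, FPKM, TPM and its posterior mean, and a transcript table that adds the share of each transcript in percent. A second transcript table deposited by them holds estimated counts and TPM from another quantifier. The build was mm10 with the GENCODE M21 annotation, per the deposited descriptions. Aligner, quantifiers and strand use: not given in the sources used here.

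Second-table values were summed per gene. Expected counts were rounded for edgeR 4.0.16 (R 4.3.3) TMM factors, and ratios used a prior count of 0.5. Entries with numeric identifiers (3 and 2 counts) and spike-ins (214409 and 223665 counts) stayed out of gene totals. Intervals are exact Clopper-Pearson at 95%; without molecular identifiers they, and the limit of 3 counts used for a count of 0, cover only counting error. The ratio script was tested on simulated data. Python 3.11.15, numpy 2.4.6, pandas 2.3.3 and scipy 1.17.1 were used.

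The genes and marker lists were chosen with earlier results of these data known. Every member is named. Other genes come from the marker lists or share or neighbour reads with a member (Lyz1 and overlapping genes, chosen after seeing the annotation), and transcripts are named from members where at least 2 held 10% in both mice or the leading one differed, leaving out most with few counts. The marker lists cover further macrophage, monocyte, T and NK, B and plasma, mast, neutrophil, platelet, erythroid, thymocyte, endothelial, fibroblast, pericyte and smooth muscle, adipocyte and cardiomyocyte genes. Protein sequences were not used here. Most genes of these lists enter only through their sums and counts and are not reported here by name. Alternatives were the second quantifier, posterior mean TPM, FPKM, rescaled TPM of nuclear protein-coding genes, scaling by spike-ins, by total counts or by DESeq2 1.42.0, other thresholds and priors, and leaving out each mouse.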

Additional observations from a re-analysis of the deposited data

How the results depend on the processing

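Detection and levels depended on the unit and the cutoff. Of the 53 genes, 42 had at least 10 expected counts in both mice, against 27 at 1 TPM, and 35 would be detected in replicate 1 alone and 27 in replicate 2 alone. The macrophage median of 4.28 TPM was 4.88 with the second quantifier, 3.38 in FPKM and 10.95 as TPM of nuclear protein-coding genes, and 3.98 to 4.58 with 1 mouse left out. The lymphocyte median of 0.228 TPM was 0.468 as posterior mean TPM and 0.585 as TPM of nuclear protein-coding genes, and 0.155 to 0.30 with 1 mouse left out. The platelet median of 2.22 TPM was 5.71 as TPM of nuclear protein-coding genes, and 0.90 without replicate 1 or 3.53 without replicate 2. The 6 genes higher in replicate 1 became 11 at a mean count of at least 10, and 5 with spike-ins or total counts, where Itgb3 was lost. The number higher in replicate 2 was 0 in all 8 other settings tried. The log2 ratio of the macrophage sum, -0.02, became 0.0242 with total counts and 0.15 with spike-ins, that of the platelet sum, -1.52, became -1.34 with spike-ins, and that of Lyz2 turned from -0.16 to 0.00862 with spike-ins. Of the 52 genes with counts, the ratios of 43 stayed within their counting intervals with spike-ins. All 52 did so with DESeq2 size factors, total counts and the second quantifier. No paired analysis was possible because there is 1 group. Genes under about 20 counts a library, which include the T, NK and most mast cell genes, are limited by depth.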

Other observations

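Antigen receptor segments were counted beside Ighm and Igkc. The 13 immunoglobulin constant region genes summed to 485 counts in replicate 1 and 354 in replicate 2, a log2 ratio of -0.69 (interval -0.89 to -0.49). Of 218 immunoglobulin variable genes, 45 had counts in replicate 1 and 21 in replicate 2, with 61 and 27 counts in all. Among the other constant regions, Ighd, the IgD chain of mature naive B cells, had 80 and 43 counts, Ighg2c, an IgG chain, 25 and 25, and Igha, the IgA chain, 1 and 0. The 8 T cell receptor constant genes summed to 44 and 40 counts (log2 ratio -0.37, interval -1.03 to 0.28), led by Trac with 18 and 19. The shares of blood and tissue lymphocytes in these counts were not tested.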
